A study of Mus musculus with 3 samples.

Results

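Cycling macrophage nuclei of the mouse abdominal aorta were those that carried both macrophage transcripts and transcripts of dividing cells. A nucleus was a member when at least 2 of the 6 macrophage genes Csf1r, Mertk, Adgre1, Ms4a7, Cd68 and Ctss were detected, together with at least 3 of the 8 cycle genes Top2a, Mki67, Cenpe, Cenpf, Kif11, Anln, Knl1 and Diaph3. Of 30730 nuclei with at least 500 UMIs (unique molecular identifiers, each a counted transcript), at least 300 genes and under 5% mitochondrial UMIs, 16903 met the macrophage rule and 780 of those were cycling. They were set against the 11251 macrophage nuclei with none of the 8 cycle genes, called non-cycling here. The 4872 macrophage nuclei with 1 or 2 cycle genes lay between the groups.

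Single-nucleus RNA sequencing was done on the abdominal aorta of ApoE-/- mice on the C57Bl/6 strain, which lack apolipoprotein E and develop atherosclerosis, and all mice were on a high fat diet. The study's title states its question, which is whether macrophages of the atherosclerotic plaque drive aneurysms of this vessel. The 3 libraries came from mice exposed to cigarette smoke that had an aneurysm, mice exposed to smoke that had none, and mice kept in room air, each for 20 weeks. The sources used here give neither the age of the mice nor the number of animals per library. There was 1 library per group, so a difference between groups cannot be told apart from a difference between libraries, and no test was possible. The nuclei were labelled as total cells of the aorta, without a sort for macrophages. In the order smoke with aneurysm, smoke without aneurysm and room air, the files held 7348, 14859 and 13189 barcodes and 15634797, 117247048 and 73891039 UMIs. Macrophage nuclei made up 18.7%, 66.9% and 58.7% of the nuclei past the filter. A barcode sequence occurred in both libraries of a pair 26 to 46 times, and no barcode was a cycling nucleus in 2 libraries.

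Macrophages in tissue are renewed both by monocytes from blood and by division on site, and local division is a known source of macrophages in mouse plaques. In the synthesis (S) phase of the cycle a cell copies its DNA, using the MCM helicase, DNA polymerases and new histones. In mitosis, condensin folds the chromosomes, kinesin motors build the spindle and kinetochores attach chromosomes to it. Genes of DNA copying are switched on by E2F factors, and genes of mitosis by the MuvB complex with B-MYB and FOXM1 at an element named the cell-cycle genes homology region (CHR), often near CCAAT boxes bound by NF-Y. Growth factor signals such as CSF1, read by the receptor Csf1r, act through D cyclins with Cdk4 or Cdk6.

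The promoters of 4 genes are printed to show these elements, for 2 genes of the cycle rule and for 2 DNA-copying genes that the rule did not use. Sequences came from RefSeq on GRCm38.p6 and run from 250 bases before to 50 bases after the gene's start, 5′ to 3′ on the gene's strand. Capitals mark CHR (TTTGAA or TTTAAA) and CCAAT boxes in Top2a and Kif11, and E2F words (TTGGCGC or TTCCCGC) in Mcm6 and Pola1, read on both strands. TTTAAA reads the same on both strands, and a CCAAT box and an E2F word can share letters. Top2a, the topoisomerase that untangles chromosomes, lies at chr11:99024140-99024439 on the minus strand. Kif11, the motor that pushes spindle poles apart, lies at chr19:37376132-37376431 on the plus strand. Mcm6, a subunit of the replicative helicase, lies at chr1:128359656-128359955 on the minus strand. Pola1, the catalytic subunit of the polymerase that primes DNA copying, lies at chrX:93632106-93632405 on the minus strand.
Top2a: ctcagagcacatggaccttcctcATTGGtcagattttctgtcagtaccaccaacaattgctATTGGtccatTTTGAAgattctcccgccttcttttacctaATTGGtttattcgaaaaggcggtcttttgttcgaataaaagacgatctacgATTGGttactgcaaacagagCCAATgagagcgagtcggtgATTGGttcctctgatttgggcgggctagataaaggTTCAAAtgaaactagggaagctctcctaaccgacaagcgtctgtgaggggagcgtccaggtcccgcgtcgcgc
Kif11: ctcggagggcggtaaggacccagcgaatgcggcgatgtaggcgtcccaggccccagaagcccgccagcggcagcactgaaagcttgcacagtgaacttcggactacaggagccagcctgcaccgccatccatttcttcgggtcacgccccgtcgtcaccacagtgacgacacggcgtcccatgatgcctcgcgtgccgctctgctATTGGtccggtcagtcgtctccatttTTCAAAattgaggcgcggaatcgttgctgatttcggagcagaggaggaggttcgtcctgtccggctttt
Mcm6: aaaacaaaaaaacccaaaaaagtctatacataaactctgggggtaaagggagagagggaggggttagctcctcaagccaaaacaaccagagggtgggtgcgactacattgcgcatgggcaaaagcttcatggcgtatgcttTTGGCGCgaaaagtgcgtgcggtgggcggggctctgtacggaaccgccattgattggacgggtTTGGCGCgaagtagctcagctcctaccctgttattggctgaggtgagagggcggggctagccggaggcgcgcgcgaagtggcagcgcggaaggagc
Pola1: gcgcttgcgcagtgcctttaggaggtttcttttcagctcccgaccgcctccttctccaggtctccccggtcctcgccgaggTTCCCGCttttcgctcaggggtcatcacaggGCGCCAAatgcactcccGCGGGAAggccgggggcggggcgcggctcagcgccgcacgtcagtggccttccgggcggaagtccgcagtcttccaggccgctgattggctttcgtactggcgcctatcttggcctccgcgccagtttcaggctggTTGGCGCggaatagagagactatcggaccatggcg
A CHR lay in 27.8% of the 27025 promoters of the table, a CCAAT box in 37.9% and an E2F word in 6.93%. Among the 8 cycle genes of the rule, 7 promoters held a CHR, with the Top2a one nearest to the start 23 bases before it, and Diaph3 held none. Of the spindle motor list, 18 of 23 matched promoters held a CHR (78.3%) and 2 an E2F word (8.70%). The replication list had the opposite order, with a CHR in 5 of 28 (17.9%) and an E2F word in 16 of 28 (57.1%). These are matches of letters in a window, not measured binding sites, and the shares were not tested.

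The members carried more of the cycle genes than the rule asked for in most cases. All 8 were detected in 1, 115 and 57 members of the aneurysm, smoke and room air libraries, and exactly 3 in 3, 124 and 76. At least 6 were detected in 2 of 11, 257 of 502 (51.2%) and 127 of 267 (47.6%) members. Just outside the rule, exactly 2 cycle genes were detected in 8, 535 and 258 macrophage nuclei. Top2a and Mki67, which codes for the Ki-67 protein that coats mitotic chromosomes, were both detected in 5, 335 and 167 members. In members, Top2a stood at 488, 306 and 364 CPM (UMI counts scaled to an equal total per group) and Mki67 at 747, 427 and 429 CPM. These counts chose the nuclei, so they describe the members and are not a result.

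**Figure D1:**
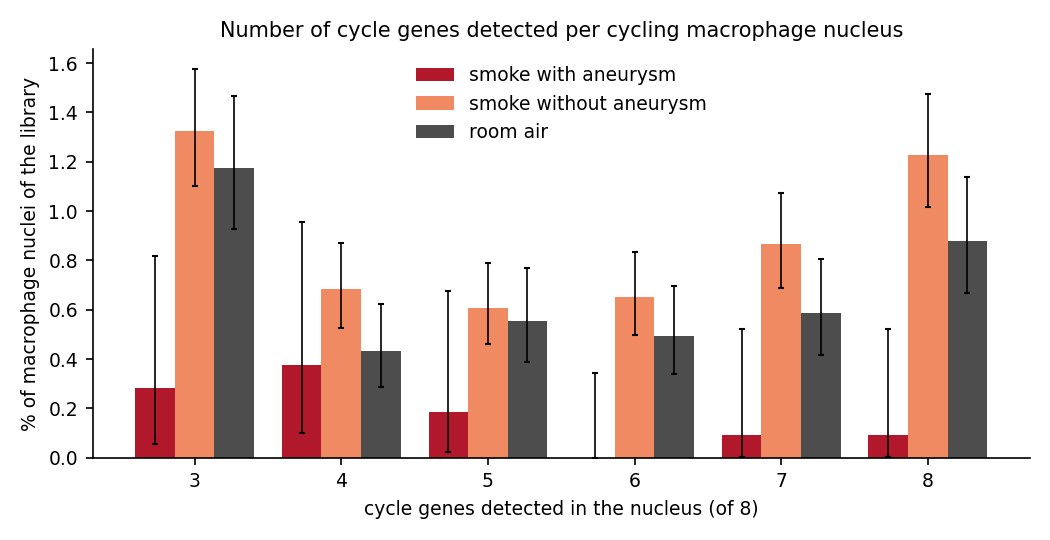
Share of a library's macrophage nuclei (vertical axis, percent, bars with exact 95% intervals for counting error) by number of the 8 cycle genes detected (horizontal axis), for cycling nuclei of the 3 libraries. In the smoke and room air libraries the bars are highest at 3 genes (124 and 76 nuclei) and at 8 genes (115 and 57 nuclei), and lower between.

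The macrophage side of the label can be described on the same 6 genes, which chose the members and so cannot test it. Members detected a median of 3, 4 and 3 of them in the aneurysm, smoke and room air libraries, against 2, 3 and 3 in non-cycling nuclei. At least 4 were detected in 27.3%, 68.1% and 49.4% of members, against 16.2%, 49.2% and 38.0% of non-cycling nuclei. These counts were not matched for depth. Members had a median of 2139, 9828.5 and 7943 UMIs, and non-cycling nuclei 1526, 6503.5 and 4444 UMIs. A nucleus of another type can meet the macrophage rule, since free RNA and doublets add UMIs. Nuclei with at least 3 endothelial markers met the macrophage rule in 7.30%, 52.5% and 36.4% of cases. Csf1r, the receptor for the macrophage growth factor CSF1, was rarer in those nuclei. It was detected in 56.4% of smoke members at a median of 9828.5 UMIs, against 16.2% of the endothelial-marker nuclei of that library at a median of 9286.5 UMIs. In room air it was detected in 43.1% of members, at a median of 7943 UMIs, against 9.53% of the endothelial-marker nuclei, at 6928 UMIs. Mertk, a receptor for the uptake of dead cells, differed less, with 83.7% of smoke members against 68.8%, and 86.9% of room air members against 60.3%. These gaps were in part set by the rule, which asked for 2 of the genes in members only. Among the endothelial-marker nuclei that met the same rule, Csf1r was detected in 29.7% in smoke and 23.4% in room air, below the members. Mertk was detected in 89.5% and 89.8% of them, above the members. How many members are macrophages was therefore not settled by these genes, and 73 of 502 and 65 of 267 members rest on exactly 2 of them. The 11 aneurysm members, 4 of which rest on 2 genes, are described apart at the end.

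The cycling share of macrophage nuclei was 1.03% in the aneurysm library, 5.36% in the smoke library and 4.12% in the room air library. The exact Clopper-Pearson 95% intervals were 0.516% to 1.84%, 4.91% to 5.84% and 3.65% to 4.64%. These intervals, and those on CPM and ratios given later, cover counting error only, and say nothing of animals or of copies made before counting. The libraries differed in depth, with a median of 2139, 9828.5 and 7943 UMIs in members against 1526, 6503.5 and 4444 UMIs in non-cycling nuclei. Nuclei with at least 1000 UMIs were also thinned to 1000 UMIs before the rule was applied. Shallower nuclei were left out, which removed 1692 of 5707, 933 of 14001 and 1036 of 11022 nuclei past the filter. The shares were then 0.568% (3 of 528), 1.68% (79 of 4706) and 1.65% (54 of 3269). The ratio of the smoke without aneurysm share to the room air share was 1.30 (1.12 to 1.51) on all UMIs and 1.02 (0.710 to 1.46) after thinning. The ratio of the aneurysm share to the smoke share was 0.192 (0.0954 to 0.347) on all UMIs and 0.338 (0.0683 to 1.03) after thinning. The ratio of the aneurysm share to the room air share was 0.250 (0.123 to 0.454) on all UMIs and 0.344 (0.0688 to 1.06) after thinning. After thinning, the intervals of these ratios all included an equal share, so this comparison resolved no difference between libraries. The aneurysm ratios then rested on 3 members, too few to decide.

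The share was higher in deeper nuclei inside each of the larger libraries. In the smoke library it was 0.858% of macrophage nuclei with 500 to 1000 UMIs and 7.67% of those with at least 16000 UMIs. In room air it was 1.56% and 8.26% in the same bins. In the aneurysm library, 10 of the 11 members had under 8000 UMIs. Its share in nuclei with 2000 to 4000 UMIs was 1.37% (4 of 291, interval 0.376% to 3.48%). In the same bin the share was 3.66% (2.76% to 4.75%) in the smoke library and 2.60% (1.89% to 3.49%) in the room air library. The aneurysm interval overlapped both, but the smoke share lay above it. In each bin below 16000 UMIs the aneurysm share was the lowest of the libraries, on 1 to 4 members per bin. With 4000 to 8000 UMIs it was 1.12% (1 of 89, interval 0.0284% to 6.10%), against 4.54% in smoke and 3.90% in room air. A difference across bins was not tested. Mitochondrial UMIs did not separate the groups, with a median of 0.752%, 0.222% and 0.590% in members and 0.723%, 0.230% and 0.595% in non-cycling nuclei.

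**Figure D2:**
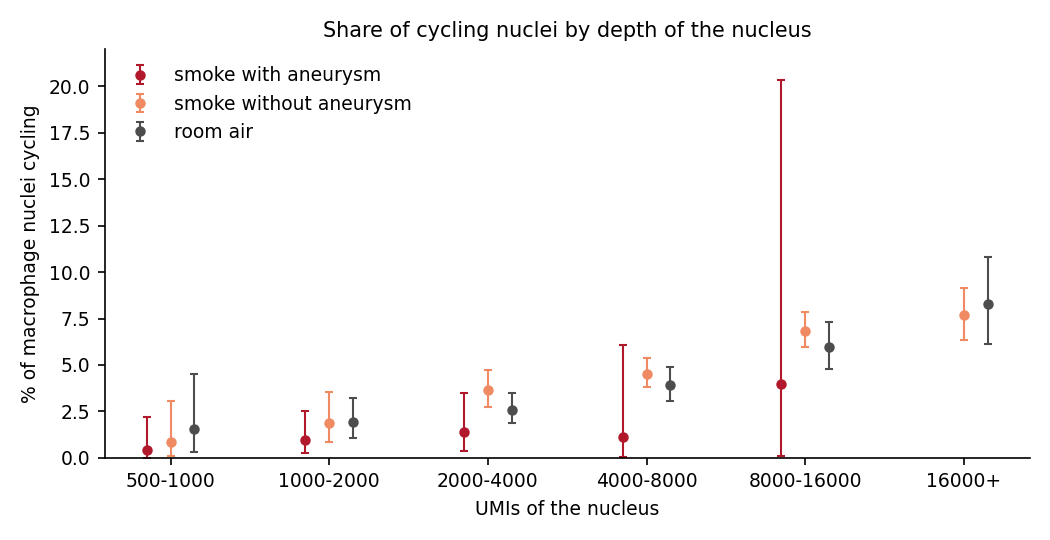
Share of macrophage nuclei that were cycling (vertical axis, percent, with exact 95% intervals for counting error) by UMIs per nucleus (horizontal axis, bins), for the 3 libraries. The share climbs from under 2% below 1000 UMIs to 7.67% in the smoke library and 8.26% in the room air library at 16000 UMIs or more.

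Relative to non-cycling macrophage nuclei, members held more RNA of nearly the whole cycle programme, DNA copying, repair and mitosis together. Because the nuclei were chosen on cycle genes, this is a description of the members and not a test. Counts of all nuclei in a group were added up within each library, and a gene is called higher or lower where its CPM differed at least 1.5-fold, among genes with an expected count of at least 10 in the smaller sum. In the smoke library, 9.29% of 13575 genes were higher and 12.8% lower, and in room air 11.6% of 11063 were higher and 8.53% lower. The median of all these genes was -0.03 and 0.01 on the log2 scale. In both libraries at once, 6.52% of 11059 genes were higher and 4.42% lower, while 46 went opposite ways. The aneurysm library, with 11 members, was left out of these ratios.

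All 34 measured replication genes were higher in smoke members and all 26 in room air members, with a median log2 ratio of 2.34 and 2.58. Pola1 stood at 617 CPM in cycling and 84.2 CPM in non-cycling smoke nuclei, 7.33-fold higher. In room air it stood at 715 and 85.4 CPM, 8.37-fold higher. Mcm6 had 67.0 against 14.3 CPM in smoke and 63.1 against 11.7 CPM in room air. Both genes thus had a clear level in non-cycling nuclei, while Clspn, which relays signals from stalled forks, had 99.3 against 3.02 CPM in smoke and 124 against 4.11 CPM in room air. Of the nucleotide supply list, 9 of 12 and 7 of 9 were higher, with medians of 2.05 and 1.92. Rrm2, the subunit of ribonucleotide reductase whose level limits dNTP supply, had 14.8 against 0.405 CPM in smoke and 24.6 against 0.364 CPM in room air, where it fell under the expected count of 10 and is not among the counted genes. Ctps, which makes CTP for RNA as well as DNA, stood at 43.9 against 49.5 CPM and 43.3 against 53.3 CPM, within the 1.5-fold limit.

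Repair genes that act at forks had larger ratios than the copying machinery, with 20 of 20 and 14 of 14 higher and medians of 4.37 and 4.64. Brip1, a helicase that works with Brca1, had 228 against 8.36 CPM in smoke (27.3-fold) and 237 against 9.46 CPM in room air (25.1-fold). Neil3, a glycosylase that unhooks cross-links between DNA strands, had the highest rank of all genes under the naming rule. It had 199 CPM (95% interval 188 to 211) in smoke members against 1.36 CPM (1.05 to 1.72) in non-cycling nuclei, 147-fold (115 to 191). In room air it had 214 CPM (197 to 232) against 1.13 CPM (0.766 to 1.60), 190-fold (132 to 282). It was detected in 55.4% and 54.3% of members, against 1.09% and 0.701% of non-cycling nuclei. All 15 and 12 measured genes of chromatin assembly were higher, at medians of 2.51 and 2.61. Ezh2, which writes the repressive H3K27 methyl mark, had 308 against 37.2 CPM in smoke and 321 against 35.1 CPM in room air. Histone transcripts, most of which lack a poly(A) tail, were thinly measured, with 5 of 7 and 2 of 3 higher, at medians of 1.06 and 0.67.

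The spindle list had the highest median of all lists. Spindle motors were higher in 24 of 24 and 20 of 20, with medians of 5.57 and 5.60, and kinetochore and checkpoint genes in 23 of 24 and 16 of 17, with medians of 4.10 and 4.35. Kif4, a chromosome-bound kinesin, had 167 against 1.17 CPM in smoke (142-fold) and 140 against 1.02 CPM in room air (137-fold). Bub1, a kinase of the spindle checkpoint, had 71.4 against 0.911 CPM in smoke (78.4-fold) and 81.0 against 0.946 CPM in room air (85.7-fold). Cdk1, the kinase that drives entry into mitosis, had 31.6 against 0.891 CPM in smoke and 26.9 against 0.873 CPM in room air, where it too was under the expected count. All 23 and 14 measured cyclins and cycle kinases were higher, at medians of 4.26 and 3.93. Condensin and cohesin genes were higher in 15 of 16 and 13 of 14, at 2.55 and 2.53. Cytokinesis genes were higher in 6 of 11 in each library, and genes of the anaphase-promoting complex and its partners in 6 of 10 and 5 of 9. In that last list the core subunits Anapc4 and Cdc16 stayed within the limit, while Ube2c, its ubiquitin-loading enzyme, had 8.72 against 0.263 CPM in smoke and 6.72 against 0.218 CPM in room air, under the expected count in both and so not counted.

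Beyond Neil3, Kif4 and Bub1, the naming rule gave 17 further genes that were highest in members of both libraries. They included the kinesins Kif14 (99.3-fold in smoke, 129-fold in room air) and Kif15 (66.6-fold and 67.1-fold). They also included the spindle pole gene Aspm (58.7-fold and 104-fold), the midzone gene Prc1 (49.0-fold and 57.4-fold) and the E2F repressor E2f7 (59.3-fold and 54.1-fold). The rest were Depdc1b, Depdc1a, Iqgap3, Ckap2l, Kntc1, Nusap1, Melk, Efcab11, Shcbp1, Cdca2, Stil and the long non-coding RNA Lockd. These 17 lay between 42.1-fold and 129-fold.

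Of the cycle transcription factors, 13 of 14 and 12 of 13 were higher. Foxm1, the activator of mitotic genes, had 24.9 against 0.607 CPM in smoke (40.9-fold) and 20.9 against 0.400 CPM in room air (52.3-fold), where it was under the expected count and not counted. Most brakes lay within the limit, with 3 of 16 higher and 1 lower in smoke, and 1 of 13 higher and 2 lower in room air. Rbl1, the E2F-repressing protein p107, had 122 against 22.4 CPM (5.44-fold) in smoke and 119 against 21.9 CPM (5.46-fold) in room air. Cdkn2c, the Cdk4 and Cdk6 inhibitor p18, had 18.9 against 2.00 CPM (9.44-fold) in smoke and 24.6 against 1.60 CPM (15.4-fold) in room air, where it was likewise not among the 13 counted. Cdkn1a and Cdkn1b, the inhibitors p21 and p27, lay within the limit, at 37.2 against 27.3 CPM and 34.2 against 32.2 CPM in smoke.

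**Figure D3:**
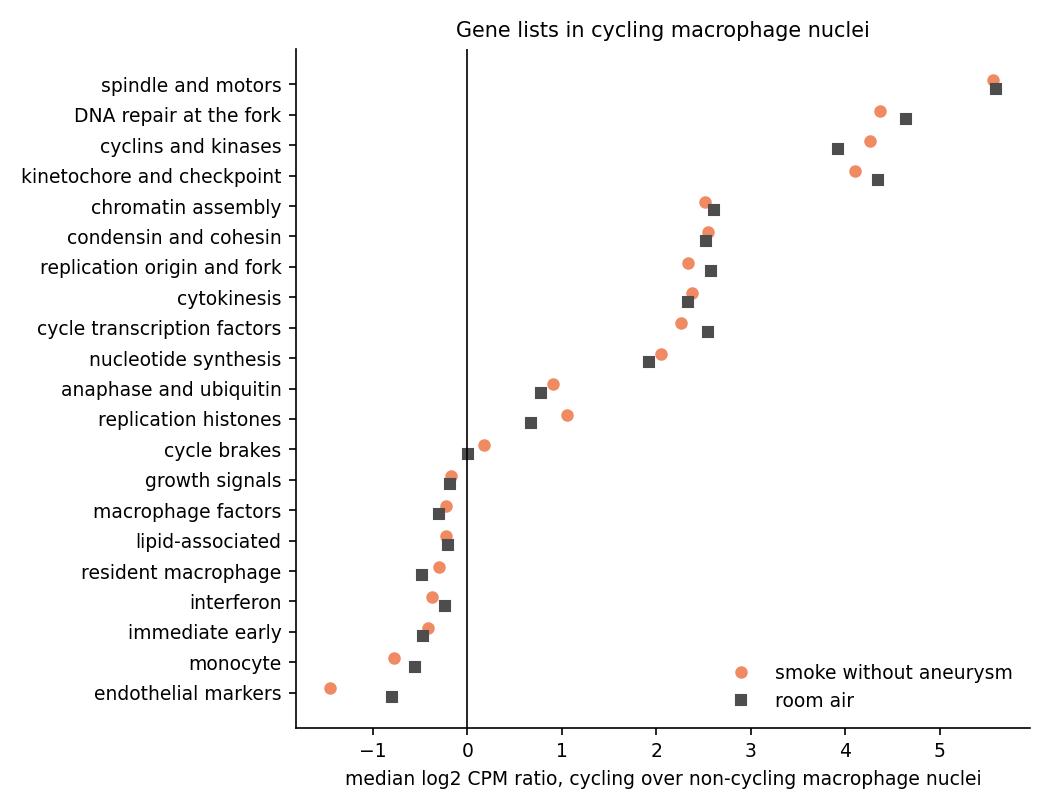
Median log2 CPM ratio, cycling over non-cycling macrophage nuclei (horizontal axis), of each gene list (rows), in the smoke without aneurysm and room air libraries. Lists of the copying and mitosis machinery lie to the right, from 0.67 to 5.60. Growth signal, macrophage factor and lipid-associated lists lie between -0.17 and -0.30. Resident macrophage, interferon, immediate early and monocyte lists lie between -0.23 and -0.77, and endothelial markers farthest left, at -1.46 and -0.80.

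The growth signal list had medians of -0.17 and -0.19, with 1 of 22 higher and 3 lower in smoke and 3 of 22 higher and 3 lower in room air. Its D cyclins, which link growth signals to Cdk4 and Cdk6, went different ways. Ccnd1 had 23.0 CPM in cycling and 12.7 CPM in non-cycling smoke nuclei (1.82-fold), and 13.8 against 8.66 CPM in room air (1.60-fold). Without nuclei that carried at least 3 markers of another cell class, Ccnd1 turned to -0.072 on the log2 scale in room air. Ccnd2 had 21.1 against 32.0 CPM in smoke and 13.8 against 22.6 CPM in room air. With at least 3 macrophage genes asked for, its log2 ratio in smoke turned to 0.019. Ccnd3 was lower in members, at 87.2 CPM in cycling against 173 CPM in non-cycling smoke nuclei (-0.99), and 34.0 against 99.6 CPM in room air (-1.55). Nuclei with no macrophage gene held 395 and 255 CPM of Ccnd3, more than either macrophage group. Cdk6, the partner of the D cyclins, had 812 against 547 CPM in smoke (1.48-fold) and 623 against 523 CPM in room air (1.19-fold). Csf2rb, a shared receptor subunit for GM-CSF, had 114 against 163 CPM in smoke and 101 against 148 CPM in room air, within the limit. Csf1, the ligand of Csf1r, had 36.7 against 36.6 CPM and 32.9 against 24.0 CPM.

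The 6 macrophage genes of the rule were all within the 1.5-fold limit. Csf1r had 105 against 103 CPM in smoke and 75.05 against 89.6 CPM in room air, and Mertk 829 against 1186 CPM and 932 against 1152 CPM. Macrophage transcription factors were lower in 3 of 21 and 4 of 21, where 12.8% and 8.53% of all genes were lower, so the smoke share was near that of all genes. None was higher, and the medians were -0.23 and -0.30. Klf2 and Klf4, factors that restrain activation, were lower in both libraries. Klf2 had 33.7 against 58.1 CPM (-0.78) in smoke and 19.0 against 35.1 CPM (-0.88) in room air, and Klf4 had 39.2 against 60.4 CPM (-0.63) and 26.1 against 42.9 CPM (-0.72). Among nuclei with at least 3 macrophage genes, Klf2 stood at -0.18 in smoke and Klf4 at -0.29 and -0.36.

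Cx3cr1 and Ccl2 were higher in members of both libraries. Cx3cr1, the fractalkine receptor of monocytes and resident macrophages, had 37.4 CPM in cycling against 18.9 CPM in non-cycling smoke nuclei, 1.98-fold (1.70 to 2.29). In room air it had 31.4 against 14.4 CPM, 2.18-fold (1.70 to 2.76). It was detected in 22.7% and 18.7% of members, against 10.5% and 6.43% of non-cycling nuclei. With every nucleus given equal weight, its log2 ratio was 0.48 in smoke and 1.17 in room air. Ccl2, the chemokine that draws monocytes, had 28.8 against 14.8 CPM in smoke (1.95-fold) and 44.8 against 11.2 CPM in room air (3.99-fold). In smoke no other monocyte gene was higher. In room air Gpr141, an orphan receptor, was also higher, with 31.7 against 18.2 CPM, while in smoke it had 25.5 against 30.3 CPM. Adgre4, a receptor of the patrolling monocyte type, had 7.24 against 21.6 CPM in smoke, and 2.24 CPM from 6 UMIs against 13.5 CPM in room air. The monocyte list as a whole had 1 of 12 higher and 6 lower in smoke, and 2 of 10 higher and 5 lower in room air. The inflammatory list had 4 of 16 higher and 2 lower in smoke, and 3 of 15 higher and 2 lower in room air. F13a1, a gene of resident macrophages, had 77.4 against 115 CPM in smoke and 12.7 against 70.3 CPM in room air. The resident macrophage list had 1 of 14 higher and 4 lower in smoke, and 0 of 7 higher and 2 lower in room air.

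The lipid-associated programme, which foamy plaque macrophages carry, was lower in 4 of 20 genes in smoke and in none of 20 in room air, with medians of -0.22 and -0.21. Atp6v0d2, a subunit of the lysosomal proton pump, had 802 against 1324 CPM in smoke (-0.72) and 1094 against 1481 CPM in room air (-0.44). Ctsl, a lysosomal protease, had 341 against 547 CPM (-0.68) and 324 against 426 CPM (-0.39). Trem2, the lipid receptor, had 65.2 against 68.7 CPM and 54.5 against 55.1 CPM. The summed level of this list varied with the number of cycle genes. In smoke it was 14305 CPM in nuclei with none, 17413 CPM with 2, 16063 CPM with 3 and 9022 CPM with 6 to 8. In room air the same groups had 13959, 17258, 15609 and 8996 CPM. The median depth was 11142 UMIs with 2 cycle genes and 11438 UMIs with 6 to 8 in smoke, and 8510 and 9167 UMIs in room air. Members with at least 6 cycle genes held the least, at list medians of -0.60 and -0.57 against non-cycling nuclei.

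**Figure D4:**
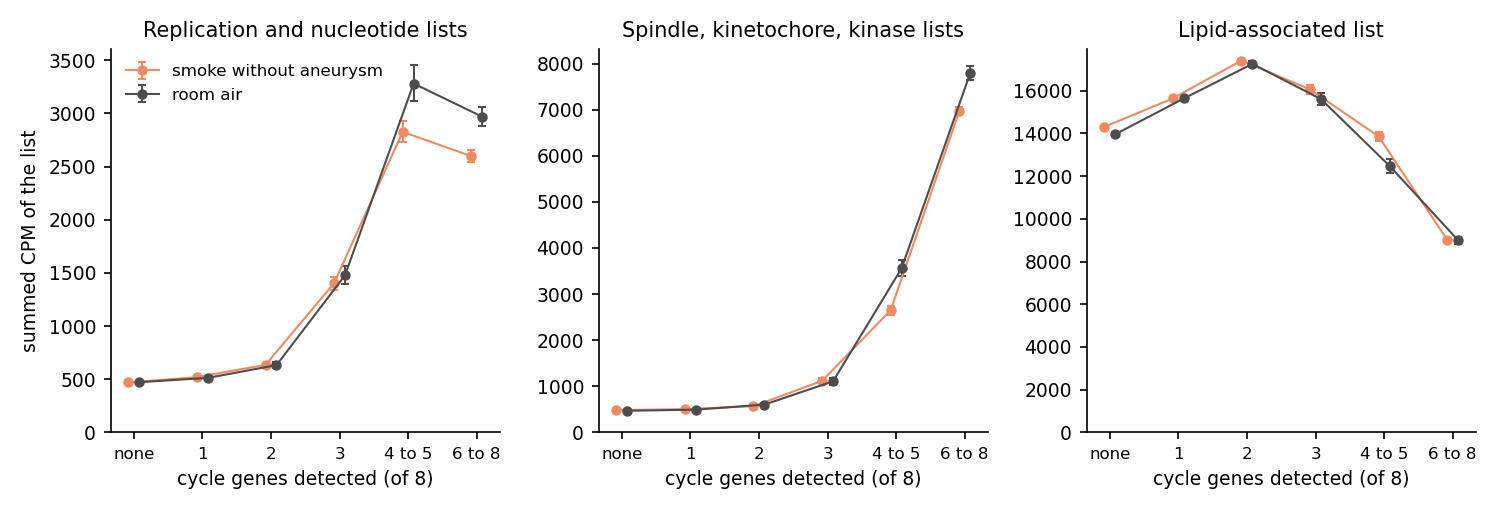
Summed CPM of the replication, mitosis and lipid-associated lists (vertical axes) in macrophage nuclei by the number of cycle genes detected (horizontal axis), in the smoke without aneurysm and room air libraries. Mitosis transcripts are highest at 6 to 8 genes (6961 and 7790 CPM), where lipid-associated transcripts are lowest (9022 and 8996 CPM).

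Immediate early genes, which answer stimulation within minutes and also tissue dissociation, were lower in 4 of 13 genes in smoke and 4 of 11 in room air, with none higher. Of 11 measured in both libraries, 1 was lower in both. Jund had 126 against 212 CPM in smoke (-0.75) and 87.7 against 169 CPM in room air (-0.95). Nuclei with no macrophage gene held 370 and 335 CPM of it. Interferon-induced genes had medians of -0.38 and -0.23, with 5 of 18 lower in smoke, and 3 of 12 higher and 4 lower in room air. Antigen presentation genes of MHC class II had medians of 0.37 and -0.22, with none and 1 of 7 past the limit.

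Markers of other cell classes moved with these ratios. At least 3 markers of 1 other class were carried by 4 of 11, 41.2% and 28.5% of members, against 20.1%, 39.8% and 24.7% of non-cycling nuclei in the aneurysm, smoke and room air libraries. Endothelial markers were lower in members, in 10 of 10 in smoke and 7 of 10 in room air, with medians of -1.46 and -0.80. Their summed level was 424 against 1238 CPM in smoke and 607 against 1136 CPM in room air. Smooth muscle markers were higher in 2 of 9 in smoke and 6 of 8 in room air, with sums of 546 against 438 CPM and 584 against 314 CPM. Fibroblast markers had 1 of 10 higher and 4 lower in smoke, and 2 of 9 higher and 3 lower in room air. Their sums were 734 against 758 CPM in smoke and 705 against 588 CPM in room air. At least 3 of them were carried by 24.3% of smoke and 16.5% of room air members, against 18.6% and 10.4% of non-cycling nuclei. Shares of nuclei with 3 markers were not matched for depth, which was higher in members. Without the nuclei that carried 3 markers of another class, the smooth muscle median was -0.70 in smoke and -1.08 in room air, and the endothelial median -0.76 and -0.23. Those nuclei were left out on these same markers, so a change in these medians was in part built in. The room air smooth muscle median then rested on 3 measured markers, 2 of them lower. The 10 genes named as lowest in members included Selp, the endothelial adhesion receptor P-selectin, and Car3, an enzyme abundant in fat cells. Selp had 14.2 against 46.8 CPM in smoke and 12.7 against 46.2 CPM in room air, while nuclei with no macrophage gene held 119 and 126 CPM. Car3 had 5.10 against 24.5 CPM in smoke, and 0.747 CPM from 2 UMIs against 7.28 CPM in room air, while nuclei with no macrophage gene held 145 and 24.1 CPM. The other 8 were Acer2, Pcdh15, Nalf1, Pcdh9, Angpt1, Gria4, Mannr and Pgm5, at -1.61 to -3.70 on the log2 scale. Without the nuclei that carried other classes' markers, Gria4 turned to 0.081 in smoke. The part of other cells' RNA in the lower genes was not tested further.

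Members differed among themselves in which cycle transcripts led. Each was assigned to the side where it had more UMIs, DNA copying and nucleotide supply (47 genes) or spindle, kinetochore, cyclin and kinase genes (78 genes), leaving out the 8 rule genes. Mitosis transcripts were in excess in 8 of 11, 347 of 502 (69.1%) and 191 of 267 (71.5%) members of the aneurysm, smoke and room air libraries. Replication transcripts were in excess in 2, 142 and 71 members. Among members with 6 to 8 cycle genes, mitosis transcripts led in 230 of 257 (89.5%) in smoke and 116 of 127 (91.3%) in room air. UMIs were not scaled for the number or level of genes on each side. All 8 rule genes were lower in replication-leaning members of the smoke and room air libraries. The shares, and their change with the number of cycle genes, were therefore in part set by the rule and the split. They describe the members and are not a measure of stage. The summed replication level was highest at 4 to 5 cycle genes and the mitosis level at 6 to 8. Replication stood at 1402, 2826 and 2598 CPM in smoke members with 3, 4 to 5 and 6 to 8 cycle genes, while mitosis stood at 1115, 2648 and 6961 CPM. In room air the replication level was 1477, 3281 and 2968 CPM and the mitosis level 1106, 3557 and 7790 CPM.

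Some genes outside those 125 separated along the same line, given without a test because the split was made on the same nuclei. Chromatin assembly genes were mixed, with 5 of 15 higher and 3 lower in smoke, and 4 of 14 higher and 3 lower in room air. Cycle transcription factors had 1 of 14 higher and 3 lower in smoke, and 2 of 14 higher and 4 lower in room air. Nucleotide supply genes, part of the split, had 3 of 10 higher in smoke, but 2 of 9 higher and 3 lower in room air. Of all genes tested, 5.81% were higher and 10.8% lower in replication-leaning than in mitosis-leaning smoke members, and 7.38% and 16.5% in room air. Hells, a remodeller active on newly copied DNA, had 159 CPM in replication-leaning and 61.7 CPM in mitosis-leaning smoke members (1.37), and 175 against 93.3 CPM in room air (0.91). Uhrf1, which passes DNA methylation to the new strand, had 65.0 against 28.9 CPM in smoke and 56.5 against 33.7 CPM in room air. E2f1, an activator of copying genes, had 36.4 against 19.1 CPM in smoke and 48.05 against 21.0 CPM in room air. Ccnd1 also lay on this side, with 40.7 against 16.5 CPM in smoke and 19.2 against 11.6 CPM, from 16 and 21 UMIs, in room air.

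Foxm1 lay on the other side, with 7.29 CPM in replication-leaning and 32.1 CPM in mitosis-leaning smoke members (-2.14), and 7.21 against 27.6 CPM in room air (-1.94). Ect2, which starts the cleavage furrow, had 31.6 against 153 CPM and 30.03 against 167 CPM. Cytokinesis genes were lower in replication-leaning members in 6 of 11 in each library, and condensin and cohesin genes in 10 of 16 and 11 of 15. Smc4, a condensin core subunit, had 132 against 306 CPM in smoke and 143 against 365 CPM in room air. Histone transcripts were also on the mitosis side, in 5 of 6 and 5 of 5 measured. H1f5, a linker histone made in S phase, had 19.4 against 44.7 CPM in smoke and 4.80 CPM from 4 UMIs against 28.2 CPM in room air. Cdkn2c was on this side too, with 7.29 against 23.7 CPM and 4.80 against 34.2 CPM. Repair genes were split, with 2 of 19 higher and 3 lower in smoke, and 1 of 17 higher and 6 lower in room air.

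Replication-leaning members held more of the lipid-associated programme, with 4 of 20 genes higher in smoke and 10 of 20 in room air, none lower, and medians of 0.17 and 0.58. Lpl, the lipase that frees fatty acids from lipoproteins, had 539 CPM in replication-leaning against 309 CPM in mitosis-leaning smoke members, and 617 against 281 CPM in room air. Ctsl had 471 against 289 CPM and 449 against 266 CPM. Spp1, osteopontin, had 1565 against 814 CPM in smoke and 1062 against 819 CPM in room air. In room air, 7 of 8 smooth muscle markers were lower on the replication side, at a median of -1.83, against 2 higher and 1 lower of 8 in smoke. Ccl2 was lower there as well, at 20.05 against 33.0 CPM in smoke and 13.2 against 60.2 CPM in room air. Depth differed little in smoke, with a median of 9296 UMIs on the replication side and 10354 on the mitosis side, and more in room air, with 9628 and 7103. The sides also differed in the number of cycle genes detected. The median was 4 on the replication side and 7 on the mitosis side in smoke, and 3 and 6 in room air. Lipid-associated transcripts were lowest with 6 to 8 cycle genes, so the side and the number of cycle genes cannot be told apart here.

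**Figure D5:**
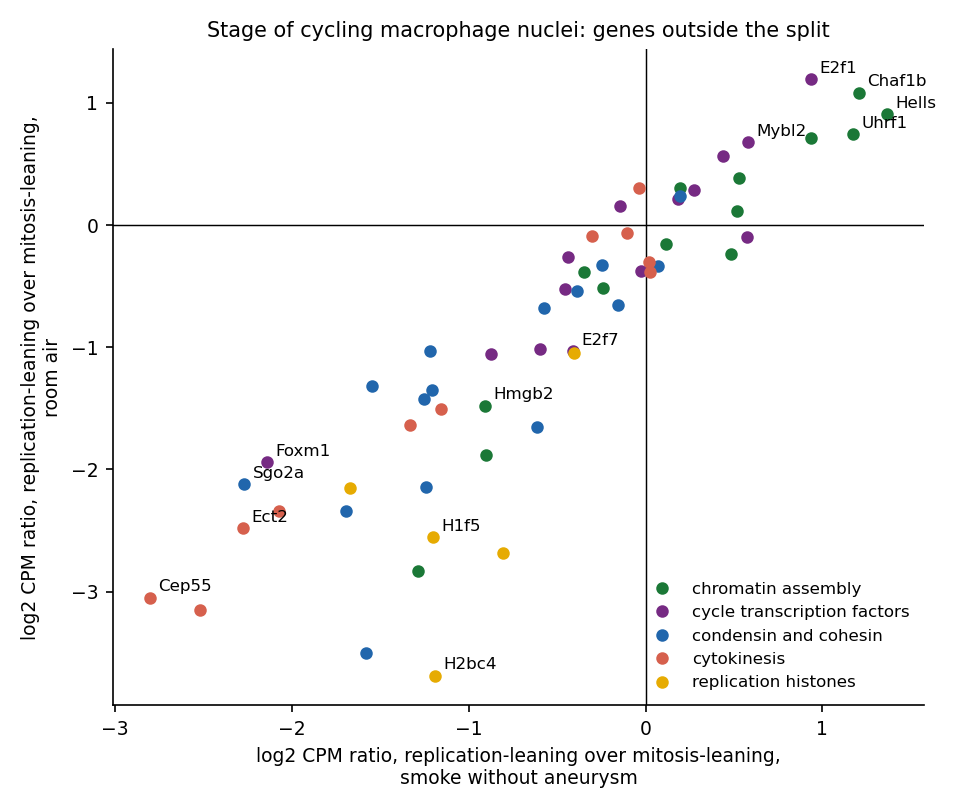
Log2 CPM ratio of replication-leaning over mitosis-leaning cycling macrophage nuclei in the smoke without aneurysm library (horizontal axis) and the room air library (vertical axis), 1 point per gene outside the 125 genes that set the split, coloured by list. Hells (1.37 and 0.91) lies at the upper right, and Foxm1 (-2.14 and -1.94) and Ect2 (-2.27 and -2.48) at the lower left.

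Between exposures, most lists of the cycle programme lay near the median of all genes in members. In smoke without aneurysm over room air members, 9.97% of 11353 genes were higher and 6.89% lower, with a median of 0.00, while in non-cycling nuclei 14.5% of 16989 were higher and 2.48% lower, with a median of 0.08. The replication list had 3 of 35 higher and 1 lower (median 0.02), the spindle list 0 of 26 higher and 3 lower (-0.15) and the kinetochore list 0 of 26 higher and 1 lower (-0.19). Histone transcripts were higher in smoke members in 3 of 6 measured (0.49), and in 6 of 8 in non-cycling nuclei (0.94). Further differences lay outside the cycle lists. MHC class II genes were higher in smoke members in 5 of 7, at a median of 1.12, against 3 of 8 and 0.33 in non-cycling nuclei. Cd74, the chaperone of class II, had 275 CPM in smoke and 108 CPM in room air members (2.55-fold), and 213 and 130 CPM in non-cycling nuclei (1.64-fold). H2-Aa, a class II chain, had 129 and 63.1 CPM in members (2.05-fold), and 99.7 and 72.9 CPM in non-cycling nuclei (1.37-fold). Markers of T and NK cells moved the same way, 6 of 6 in members at a median of 1.66, with summed levels of 122 CPM in smoke and 43.3 CPM in room air, against 90.7 and 45.1 CPM in non-cycling nuclei. Markers of dendritic cells, which also carry class II, were higher in 4 of 6 in members (0.78) and 5 of 9 in non-cycling nuclei (0.60). At least 3 of them were carried by 10.6% of smoke and 4.49% of room air members. Without the nuclei that carried 3 markers of another class, the class II median was 0.65, with 4 of 7 higher. The part of lymphocyte and dendritic cell RNA in the class II difference was not tested further. Immediate early genes were higher in 7 of 12 in members (0.72) and 7 of 14 in non-cycling nuclei (0.56).

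The genes named for the largest gaps between these libraries often rested on few nuclei. Cxcl2, a neutrophil chemokine, had 138 CPM in smoke and 24.3 CPM in room air members, with 314 of its 840 smoke UMIs in 1 nucleus. F13a1 had 77.4 and 12.7 CPM, with 94 of 470 smoke UMIs in 1 nucleus. Ttn had 86.6 and 14.2 CPM, with 131 of 526 in 1 nucleus. Fgf14 had 178 and 37.3 CPM, with 308 of 1081 in 1 nucleus, and its log2 ratio turned to -0.37 without the nuclei that carried other classes' markers. Esrrg had 24.9 and 1.12 CPM (3 UMIs in room air) and Pck1 had 39 UMIs in smoke and 0 in room air members. Acod1, which makes the itaconate of activated macrophages, was lower in smoke members, at 2.14 CPM from 13 UMIs against 39.6 CPM from 106 UMIs in room air. Non-cycling nuclei had the same order, 4.43 and 28.4 CPM. Fgf23, Syndig1, Chl1 and Dlx6os1, also named as lower, had 22 of 40, 24 of 43, 61 of 113 and 25 of 32 of their room air UMIs in 1 nucleus.

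The 11 members of the aneurysm library were few and shallow, with 532 to 10357 UMIs and 2 to 4 macrophage genes each. Replication transcripts numbered 1 to 14 UMIs per nucleus and mitosis transcripts 3 to 102. Neil3 was present at 8 UMIs in 5 of them, 230 CPM with an interval of 99.2 to 453. Mertk stood at 345 CPM in members and 1135 CPM in non-cycling nuclei of that library. Cx3cr1 and Ccl2 were at 0 UMIs, where 34801 UMIs in all make 3 counts worth 86.2 CPM, so levels like those of the other libraries could not be seen. Smooth muscle markers summed to 1810 CPM in these members against 322 CPM in non-cycling nuclei, with 1 of 9 at 0, and endothelial markers to 86.2 against 807 CPM, with 9 of 10 at 0. Fibroblast markers summed to 1523 against 513 CPM, with 4 of 10 at 0 in these members. At least 3 smooth muscle markers were carried by 3 of the 11, and at least 3 fibroblast markers also by 3. The part of smooth muscle and fibroblast RNA in this group was not tested.

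Macrophages were not the only cycling nuclei. On all UMIs, at least 3 cycle genes were detected in 0.454%, 2.07% and 1.72% of nuclei with no macrophage gene, in the aneurysm, smoke and room air libraries. After thinning, they were detected in 1.93%, 2.45% and 3.602% of nuclei with at least 2 smooth muscle markers and fewer than 2 macrophage genes. Both were counted after thinning, so these classes can hold nuclei that met the macrophage rule on all UMIs. In smoke, the class of endothelial markers held 1958 nuclei on all UMIs and 2137 after thinning. Nuclei chosen by fibroblast markers gave 0.520%, 1.44% and 2.06%. Nuclei chosen by endothelial markers gave 0 of 839 in the aneurysm library, where 3 counts make 0.358% and the exact 95% interval ends at 0.439%, then 0.421% and 0.408%. Other immune classes were smaller. Nuclei chosen by dendritic cell markers gave 0 of 40, 2.16% (11 of 509) and 2.15% (7 of 325). Nuclei chosen by B cell markers gave 0 of 9, 2.73% (7 of 256) and 3.01% (4 of 133), and those by T and NK cell markers 0 of 7, 1.59% (8 of 504) and 1.45% (2 of 138). As point values, the macrophage shares of 0.568%, 1.68% and 1.65% lay above the endothelial and below the smooth muscle shares in each library. In the aneurysm library the exact 95% interval of the macrophage share, 0.117% to 1.65%, overlapped those of both classes, so this order was not resolved. In smoke the macrophage interval, 1.33% to 2.09%, overlapped the smooth muscle one, which began at 1.59%. The macrophage interval lay apart from the endothelial one in smoke and room air, and from the smooth muscle one in room air. The macrophage shares lay within the exact 95% intervals of the dendritic, B and T cell shares in the smoke and room air libraries.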

How the data were processed

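The deposited files hold raw UMI counts per gene and barcode for 3 single-nucleus libraries, with no normalization. Per the file headers the authors made these counts with cellranger 8.0.1, while Cell Ranger is listed as version 2.2.0, beside STAR and the mm10 build, in the submitters' processing notes. This difference was not settled. The sources used here do not say how intronic reads and strand were handled, so levels of overlapping genes are uncertain. The members, lists and tests were chosen with earlier results of these data known.

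UMIs of all nuclei of a group in a library were summed and given as CPM. Ratios carry exact conditional binomial 95% intervals, levels exact Poisson ones and shares Clopper-Pearson ones; a share of 0 also has the limit of 3 counts. No doublet caller was run. Nuclei with at least 3 markers of 1 of 12 other cell classes were left out in an alternative instead. A gene at 0 UMIs was given no ratio. With 1 library per group no p-value was computed.

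Named genes, outside the 14 rule genes and predicted, mitochondrial, ribosomal, haemoglobin and sex-check genes, were the 20 highest and 10 lowest by the smaller of both libraries' ratios on the interval bound nearest 1, and up to 6 per direction between libraries. List members were named as examples of their role. Genes that the rule named but the text leaves out are not reported here. Alternatives changed the count filter, weighting, depth and both parts of the rule. Scripts were tested on simulated data. Python 3.11.15, numpy 2.4.6, scipy 1.17.1, pandas 2.3.3 and matplotlib 3.10.9 were used. RefSeq promoters were matched by symbol, for 28 of 35 replication and 23 of 26 spindle genes.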

Additional observations from a re-analysis of the deposited data

Results flagged for a closer look

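The log2 ratio of cycling over non-cycling macrophage nuclei had opposite signs in the smoke without aneurysm and room air libraries for 3 genes that were named for their gap between libraries. It was -4.04 in smoke and 2.60 in room air for Syndig1, and -3.19 and 1.497 for Chl1. It was -4.39 and 2.02 for Dlx6os1. One room air nucleus each held 24 of 43, 61 of 113 and 25 of 32 of these genes' UMIs in cycling nuclei. The smoke members held 2, 11 and 1 UMIs. With 1 library per group the difference was not tested.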

How the results depend on the processing

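No paired analysis was possible because each group has 1 library. No replicate could be left out for the same reason. Depth limits the aneurysm library, whose 11 members are too few for gene ratios. Asking for at least 6 cycle genes or at least 3 macrophage genes in gene and list ratios was chosen after seeing the data. Of 94 alternative values of the shares, their ratios and the gene counts, 73 stayed within their interval or within 1.5 times. For single genes and lists, 1342 values stayed close, 515 moved and 10 that had been past the 1.5-fold limit changed sign. Another 100 changed sign from a value within that limit.

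The cycling share in smoke without aneurysm (5.36%) was 11.1% with at least 2 cycle genes, 4.04% with at least 4, 6.18% with at least 3 macrophage genes and 1.68% after thinning. In room air (4.12%) it was 8.11% with at least 2 cycle genes, 2.95% with at least 4 and 1.65% after thinning. The smoke to room air ratio (1.30) was 1.02 after thinning.

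With an expected count of at least 30, which tests fewer genes, 1010 genes were lower in smoke members, 701 higher and 458 lower in room air members, and 492 higher and 359 lower in smoke over room air members. After thinning the chosen nuclei, 474 were higher and 835 lower in smoke, 366 and 497 in room air, and 452 and 380 in smoke over room air. The main counts were 1261 and 1732, 1288 and 944, and 1132 and 782. Lower genes in smoke numbered 1014 without nuclei that carried 3 markers of another class and 1078 with at least 3 macrophage genes.

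Of values past the limit, without nuclei that carried other classes' markers the sign changed for the adipocyte list (0.084) and Gria4 (0.081) in smoke. It also changed for the smooth muscle list (-1.08), Ccnd1 (-0.072) and Gata6 (0.16) in room air, and for Fgf14 (-0.37) in smoke over room air members. With at least 3 macrophage genes it changed for the B cell list (0.12) and Ccnd2 (0.019) in smoke and Gata6 (0.18) in room air. Against deeper non-cycling nuclei it changed for the B cell list in smoke (0.022). Of values within the limit, the largest changes of sign without those nuclei were the T and NK cell (0.50 to -0.52), smooth muscle (0.22 to -0.70) and dendritic (0.37 to -0.33) lists in smoke, and the dendritic list in room air (0.34 to -0.39). For lists of other classes' markers, a change without those nuclei was in part built in, since they were left out on the same markers. The cause was not tested.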

Other observations

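Inflammatory genes lay on the mitosis side of the members in room air, where 9 of 11 measured were lower in replication-leaning members, at a median log2 ratio of -1.52. In smoke without aneurysm, 3 of 13 were higher and 4 lower, at -0.18. In the same room air split, 7 of 8 smooth muscle markers (-1.83), 4 of 7 fibroblast markers (-0.60) and 5 of 6 MHC class II genes (-0.75) were lower. In smoke, 1 of 8 smooth muscle and 2 of 8 fibroblast markers and 0 of 7 class II genes were lower. The part of other cells' RNA in the inflammatory difference was not tested. Of all genes, 7.38% were higher and 16.5% lower in room air, and 5.81% and 10.8% in smoke. Interferon-induced genes had the other order between libraries, with 5 of 9 higher and 1 lower on the replication side in smoke (0.72), and 1 of 8 higher and 1 lower in room air (-0.04).

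Dendritic cell markers had a summed level of 1446 CPM in cycling and 929 CPM in non-cycling smoke nuclei, and of 1177 and 929 CPM in room air. Most of it was Cadm1, an adhesion gene of cross-presenting dendritic cells, at 1305 against 818 CPM in smoke and 1096 against 856 CPM in room air. Flt3, the growth factor receptor of dendritic precursors, had 31.4 against 15.0 CPM in smoke and 8.21 against 9.38 CPM in room air. At least 3 dendritic markers were carried by 10.6% of smoke members, against 5.11% of non-cycling nuclei, and by 4.49% of room air members, against 2.60%. These shares were not matched for depth, which was higher in members. Without nuclei that carried 3 markers of another class, dendritic ones included, the median of the list turned from 0.37 to -0.33 in smoke and from 0.34 to -0.39 in room air. Dead cell uptake genes were near level, with 0 of 13 higher and 1 lower in smoke, and 0 of 12 past the limit in room air.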
